A study of Arabidopsis thaliana with 6 samples.

Results

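The genes described here are 4 genes of nitrogen assimilation in Arabidopsis thaliana, 3 of which encode the enzymes that reduce nitrate to ammonium. They are NIA1 (AT1G77760, probe set 259681_at) and NIA2 (AT1G37130, probe set 261979_at), which encode nitrate reductase, NIR1 (AT2G15620, probe set 265475_at), which encodes nitrite reductase, and GLN2 (AT5G35630, probe set 249710_at, named GS2 in RefSeq), which encodes the glutamine synthetase of the plastid. They were chosen by probe set identifier, 4 of the 22746 probe sets on the array that are not Affymetrix controls. The annotation table used for names lists 0 of the 4 probe sets and pairs 0 probe sets with any of these loci, so the pairing of probe set and gene was taken as given and was not checked here. All 4 were bright enough to be tested, and none was left out.

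Nitrate taken up by a plant is first reduced to nitrite in the cytosol by nitrate reductase, an enzyme that carries a molybdenum cofactor, haem and FAD. Nitrite then enters the plastid, where nitrite reductase, with sirohaem and with electrons from ferredoxin, reduces it to ammonium. Glutamine synthetase joins the ammonium to glutamate, and in leaves the plastid form also recovers the ammonium that photorespiration releases. In Arabidopsis NIA2 accounts for most nitrate reductase activity of the shoot and NIA1 for a smaller share, and transcripts of NIA1, NIA2 and NIR1 are known to respond to nitrate, light, sugars and the time of day.

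Both groups of arrays held total RNA of wild-type plants of the Columbia accession (Col-0), 3 weeks old, grown on soil under a 16 h photoperiod and taken before flowering. One group of 3 arrays was labelled control and the other group of 3 was labelled with the saliva of an aphid that feeds from the phloem, Myzus persicae. The study asked how gene expression in the plant changes with this saliva. The labels used here give neither the tissue, nor the way and time of treatment, nor the time of day, nor what the control plants received. They do not say whether replicates were separate plants, so a p-value here reflects only how these arrays vary, which can be technical.

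Values were probe set signals in arbitrary units, scaled by the submitters to a common trimmed mean of 100.01 per array, and the small number of arrays limits the precision. Pearson correlations between arrays over the 13647 probe sets tested lay between 0.975 and 0.987. Saliva replicate 3 stood apart from the other arrays, at 22.7 on the first principal component against -13.0 to 5.31 for the rest, so the results for the 4 genes are also given without it. In these whole samples, fewer cells of a type and less RNA per cell cannot be told apart. Of 3 root marker genes (PYK10, EXPA7 and EXPA18) all had signals between 0.603 and 11.2 on the 6 arrays, under the filter on dim probe sets. FMA, a guard cell gene of the leaf, was the 1 named leaf marker of 4, with signals of 42.8 to 51.0 in the controls, 41.6 to 50.4 with saliva and a difference of -0.00035 ± 0.12 (SE). Of the flower and phloem markers 0 were named here.

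NIA2, the gene of the major nitrate reductase, showed the clearest separation of the groups. Control signals of NIA2 were 2038, 1964 and 1680, and saliva signals were 2390, 2557 and 2477. All 3 saliva arrays therefore lay above all 3 control arrays, and the saliva arrays lay closer together than the controls. On the log2(signal + 16) scale, where 16 was added to limit the weight of dim signals, the mean was 10.89 ± 0.15 (SD, n = 3) in the controls and 11.28 ± 0.048 (SD, n = 3) with saliva. The difference was 0.39 ± 0.099 (SE), a 1.31-fold higher level with a 95% confidence interval of 1.13 to 1.52.

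This difference did not pass the threshold, an adjusted p under 0.05 after Benjamini-Hochberg adjustment over all probe sets tested. The limma adjusted p was 0.172, with an unadjusted p of 0.00187. By unadjusted p NIA2 ranked 148 among the 13647 probe sets, and 364 probe sets had a difference at least as high. The difference was 0.39 without saliva replicate 3 and ran from 0.30 to 0.44 with any single array left out. Its lowest value came without control replicate 3, the dimmest array for this gene.

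NIA1, the gene of the second nitrate reductase, had control signals of 749, 610 and 627. With saliva they were 798, 1021 and 745. Saliva replicate 2 was the brightest array for this gene, and the lowest saliva array lay just under the brightest control array, so that the groups overlapped by that pair. The log2 mean was 9.40 ± 0.16 (SD, n = 3) in the controls and 9.75 ± 0.23 (SD, n = 3) with saliva. NIA1 thus differed by 0.35 ± 0.13 (SE), 1.28-fold, with a 95% confidence interval of 1.05 to 1.55, a limma adjusted p of 0.344 and an unadjusted p of 0.0171. Without saliva replicate 2 the difference was 0.22, and without saliva replicate 3 it was 0.44.

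**Figure D1:**
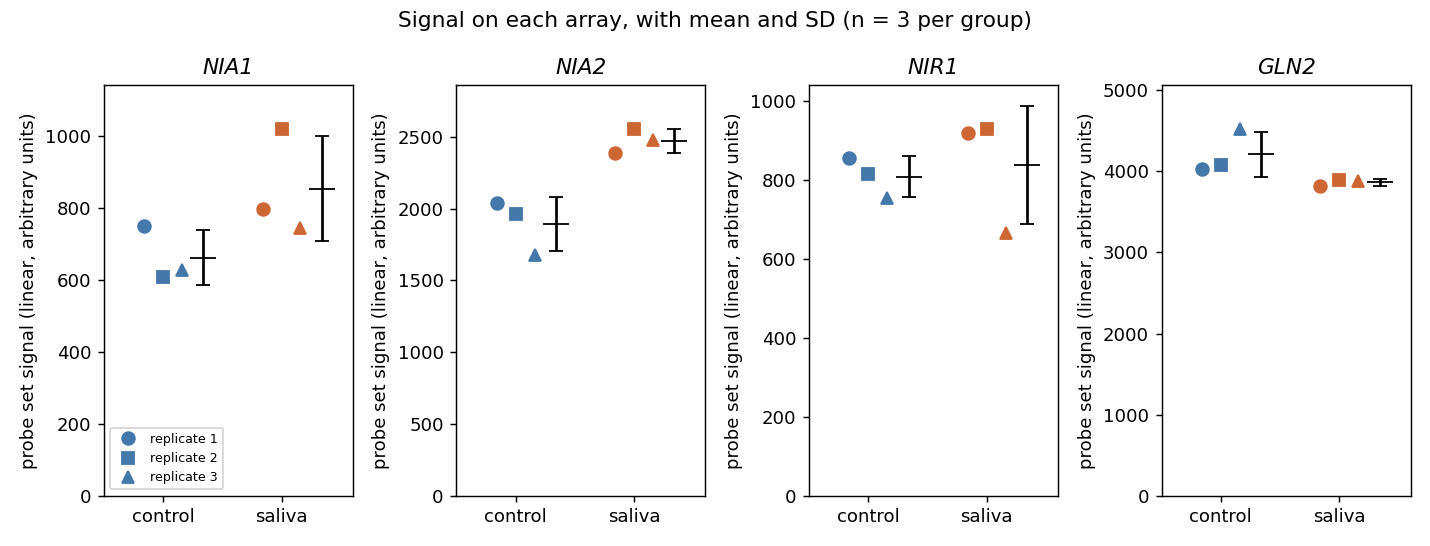
Probe set signal (linear, arbitrary units, axes from 0) of NIA1, NIA2, NIR1 and GLN2 on each of the 3 control (blue) and 3 saliva (orange) arrays; black bars give the mean and SD of each group. The NIA2 arrays separate into 1680 to 2038 and 2390 to 2557, those of NIA1 and NIR1 overlap between groups, and those of GLN2 separate by a small gap.

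Whether both nitrate reductase genes differed alike was examined on each array by the log2 value of NIA1 minus that of NIA2, which compares changes and not levels. This quantity was -1.42, -1.66 and -1.40 on the control arrays. On the saliva arrays it was -1.56, -1.31 and -1.71. The groups overlapped, with a mean change of -0.033 (two-sided exact permutation test, p = 0.9, where the smallest p that 3 arrays against 3 allow is 0.1). The arrays did not order alike for both genes. Control replicate 1 was the brightest control for each, but saliva replicate 3 was the dimmest saliva array for NIA1 and the middle one for NIA2.

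NIR1, which encodes the next enzyme of the pathway, had control signals of 856, 814 and 753 and saliva signals of 919, 929 and 665. Saliva replicates 1 and 2 lay above all controls, while saliva replicate 3 was the lowest of the 6 arrays. The log2 mean was 9.68 ± 0.092 (SD, n = 3) in the controls and 9.72 ± 0.27 (SD, n = 3) with saliva, so the spread among saliva arrays exceeded the difference between groups. That difference was 0.038 ± 0.13 (SE), 1.03-fold, with a 95% confidence interval of 0.846 to 1.25 and a limma adjusted p of 0.960. The difference was lowered by saliva replicate 3: without that array it was 0.19 (limma adjusted p = 0.545). It fell below 0 without saliva replicate 2 (-0.044), saliva replicate 1 (-0.036) or control replicate 3 (-0.011).

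GLN2, which encodes the enzyme that takes up the ammonium in the plastid, was among the brightest probe sets of the array. Its control signals were 4025, 4079 and 4524, and its saliva signals were 3820, 3890 and 3888. The groups did not overlap, with saliva lower, but the gap between them was 0.049 on the log2 scale, less than the SD of the controls of 0.092. The difference was -0.12 ± 0.088 (SE), 0.920-fold, with a 95% confidence interval of 0.806 to 1.05 and a limma adjusted p of 0.692. Without control replicate 3, the brightest array, it was -0.068, and without saliva replicate 3 it was -0.12.

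The value of GLN2 moved with the scaling of the arrays. With quantile normalization, which gives every array the same distribution of values, the difference was -0.017, and with the arrays centred on their medians it was -0.13. Bright probe sets in general were lower with saliva under the deposited scaling. The 73 probe sets at least as bright as GLN2 had a median difference of -0.11. The 840 at least as bright as NIA1, the dimmest of the 4 genes, had a median of -0.069, which was -0.0017 with quantile normalization. For NIA2 and NIA1, whose differences go the other way, quantile normalization gave 0.46 and 0.38. The part of this shift in the difference of GLN2 was not tested.

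Of the 4 genes, 0 passed the threshold in limma, against 8 of all 13647 probe sets tested (0.0586%). At an unadjusted p under 0.05 there were 2, NIA1 and NIA2, both higher with saliva, where 5.39% of all probe sets tested were higher and 10.2% differed in either direction. The groups did not overlap in 2 of the 4, NIA2 (higher) and GLN2 (lower), against 7.80% of all probe sets tested on the higher side, 7.72% on the lower and 15.5% in all. The median difference over all probe sets tested was 0.0057, with a 10th percentile of -0.21 and a 90th percentile of 0.22. NIA1 and NIA2 lay beyond that 90th percentile, and NIR1 and GLN2 lay between the 2 percentiles.

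The 4 genes were also compared with each other, over 6 pairs in all, by the difference of their log2 values on each array. NIA2 differed from NIR1 by 0.35 in its change between groups, and from GLN2 by 0.51. NIA1 differed from GLN2 by 0.47. In these 3 pairs the arrays of the 2 groups did not overlap. Each had the smallest possible p in a two-sided exact permutation test, 0.1, with an adjusted p of 0.2 over the 6 pairs. For NIA2 against GLN2 this outcome was fixed beforehand, as saliva arrays lay above all controls for NIA2 and below all for GLN2. For NIA1 against GLN2 it was fixed as well, since the small overlap of NIA1 (a gap of -0.0082) was less than the GLN2 gap of 0.049. All pairs except NIA1 against NIA2 were chosen once values were known. The share of pairs without overlap over the whole array was not computed. For NIA1 against NIR1 the value was 0.32 (exact permutation p = 0.2, adjusted p = 0.3), and for NIR1 against GLN2 it was 0.16 (exact permutation p = 0.5, adjusted p = 0.6). With 3 arrays against 3 this permutation test cannot go below 0.1, and the pairs were not put to another test. Without saliva replicate 3, the value for NIA2 against NIR1 was 0.19 and that for NIR1 against GLN2 was 0.32, while it was 0.51 for NIA2 against GLN2, 0.57 for NIA1 against GLN2 and 0.25 for NIA1 against NIR1. For NIR1 against GLN2 it was 0.056 without control replicate 3, 0.076 without saliva replicate 1 and 0.081 without saliva replicate 2.

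**Figure D2:**
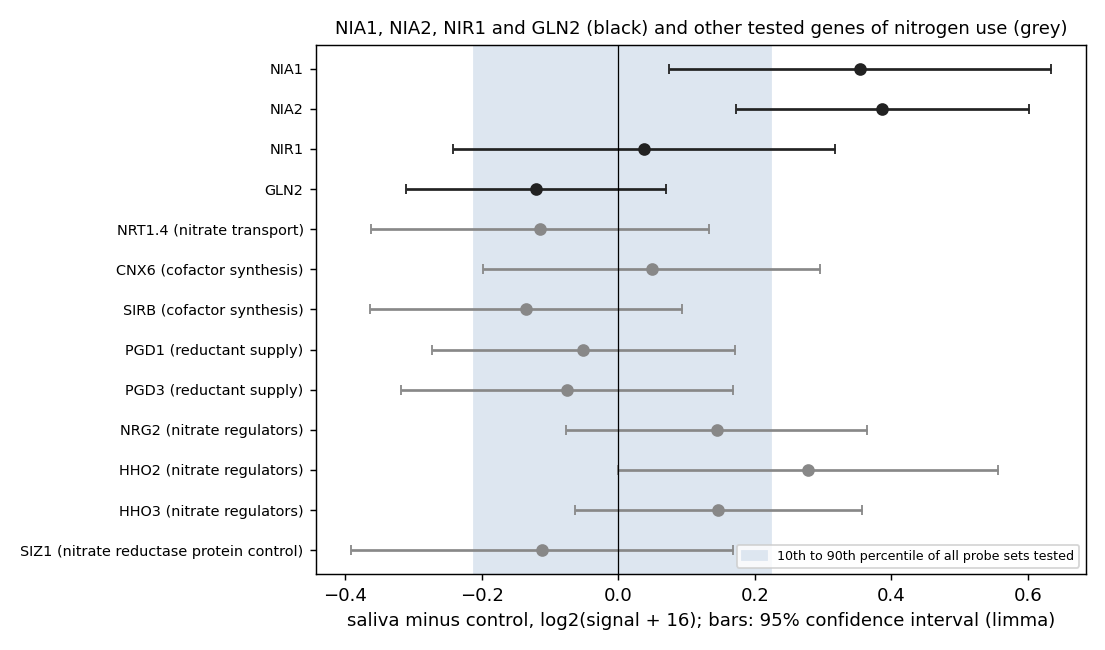
Difference between saliva and control on the log2(signal + 16) scale, with 95% confidence intervals from limma, for the 4 genes (black) and the 9 other tested genes of nitrogen use (grey); the band spans -0.21 to 0.22, the 10th to 90th percentile of all probe sets tested. NIA1 and NIA2 lie to the right of the band with intervals above 0, and neither passed after adjustment over all probe sets.

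Other genes of nitrogen use were taken from 7 lists matched by locus: transport of nitrate and of ammonium, assimilation of ammonium, synthesis of the cofactors, supply of reductant, regulators of the nitrate response, and proteins that act on nitrate reductase. Of 95 listed genes 12 had a named probe set and 9 of these were bright enough for the test, so the lists cover a small part of the pathway, and 0 genes of ammonium transport or of ammonium assimilation were named. Of the 9, 0 passed over all probe sets tested in either direction and 0 had an unadjusted p under 0.05, against 0.0586% and 10.2% of all probe sets tested. The mean with saliva was higher in 4 and lower in 5. Their median difference was -0.051, against 0.0057 over all probe sets tested, and -0.044 without saliva replicate 3.

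The 3 tested regulators all had higher means with saliva. AT1G25550, listed as HHO3, had control signals of 503 to 552 and saliva signals of 571 to 610. It was the 1 tested gene of the 9 whose groups did not overlap, against 15.5% of all probe sets tested. Its difference was 0.15 ± 0.097 (SE), with a limma adjusted p of 0.657. AT1G68670, listed as HHO2, differed by 0.28 ± 0.13 (adjusted p = 0.489), from 239 to 332 in the controls to 329 to 389 with saliva, and these ranges overlapped. AT3G60320, listed as NRG2, differed by 0.14 ± 0.10. The regulators HYH and AT3G25790, the latter listed as HHO1, were too dim to be tested. Mean control signals were 8.99 for HYH and 1.07 for AT3G25790, and mean saliva signals were 5.75 and 4.24.

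The 4 tested genes that supply cofactors or reductant had differences between -0.14 and 0.049. SIRB, a ferrochelatase that completes the sirohaem of nitrite reductase, differed by -0.14 ± 0.11 (limma adjusted p = 0.711). Signals of SIRB were 283 to 286 in the controls and 242 to 286 with saliva. AT2G43760, listed as CNX6 of molybdenum cofactor synthesis, differed by 0.049 ± 0.11. The reductant genes AT5G41670 and AT1G64190, listed as PGD3 and PGD1, differed by -0.074 ± 0.11 and -0.051 ± 0.10.

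Among transporters, AT2G26690, a member of the NRT1/PTR family listed as NRT1.4, differed by -0.11 ± 0.11 (limma adjusted p = 0.791), and NRT2.5, a high-affinity nitrate transporter, was too dim to be tested, at a mean control signal of 8.19 and a mean saliva signal of 6.66. SIZ1, the SUMO ligase that acts on nitrate reductase in Arabidopsis, had 2 named probe sets. The one with the higher mean over all arrays was used, and it differed by -0.11 ± 0.13. Of the 10 listed clock genes GI alone was tested, and it differed by -0.049 ± 0.11, with signals of 240 to 289 in the controls and 241 to 254 with saliva. Whether the time of sampling differed between arrays was not tested.

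The probe sets whose values over the 6 arrays ran most like each of the 4 genes were ranked by the root mean square difference of log2 values, each centred on its own mean. The comparison covered probe sets with 1 annotated gene, and, for each of the 4 genes, those whose SD over the arrays was at least 0.5 of that gene's own. For NIA1 the nearest were ARL (AT2G44080), named for its likeness to ARGOS, at 0.068, AT4G11120 at 0.072 and ATG8F (AT4G16520), an autophagy gene, at 0.075, where the median over 5064 probe sets was 0.30. For NIA2 they were AT5G63190 at 0.023, AT3G04000 at 0.041 and AT1G33110 at 0.042, against a median of 0.27. NIA1 and NIA2 were 0.14 apart, farther than these probe sets, which were picked as the nearest, but under both medians. NIA1 and NIR1, at 0.21 apart, also lay under the medians of those genes, 0.30 for NIA1 and 0.22 for NIR1.

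For NIR1 the nearest were SWEET2 (AT3G14770), which encodes a sugar transporter, at 0.037, AT1G30880 at 0.040 and SHL1 (AT4G39100) at 0.043. These 3 share with NIR1 the low value in saliva replicate 3. Nearest to GLN2 were AT4G26130 at 0.016, AT3G57785 at 0.021 and AT2G19680 at 0.023, which share the high value in control replicate 3. Among the 4 genes themselves NIA1 and NIA2 lay closest, and NIA1 and GLN2 lay farthest apart, at 0.30. None of the 12 probe sets passed the threshold between groups, with limma adjusted p of 0.180 at the least, for AT5G63190. These matches over 6 arrays are given as a description, and the shared values follow from how the nearest probe sets were chosen.

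**Figure D3:**
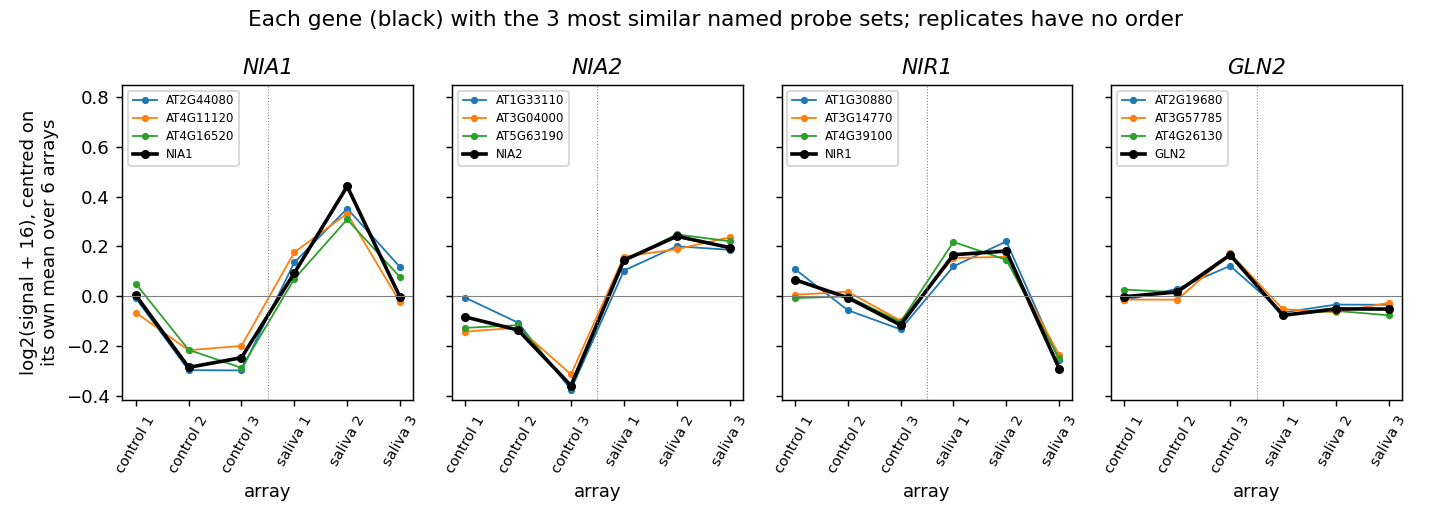
Log2(signal + 16) values centred on the mean over 6 arrays, for each of the 4 genes (black) and its 3 nearest named probe sets (coloured), by array; lines join the values of a probe set, and replicates have no order. The low value of NIR1 in saliva replicate 3, at -0.29, and the high value of GLN2 in control replicate 3, at 0.17, are shared by their nearest probe sets. These were chosen for likeness over the same arrays.

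The plot of each difference under all settings shows how far each gene moved. NIA1 and NIA2 were higher with saliva and GLN2 lower under each of the 15 alternatives, while NIR1 changed direction with 3 arrays left out singly. None of the 4 passed the threshold under any of the 15. Adjusted p in limma ran from 0.102 to 0.419 for NIA2, from 0.141 to 0.720 for NIA1, from 0.545 to 0.990 for NIR1 and from 0.621 to 0.966 for GLN2.

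**Figure D4:**
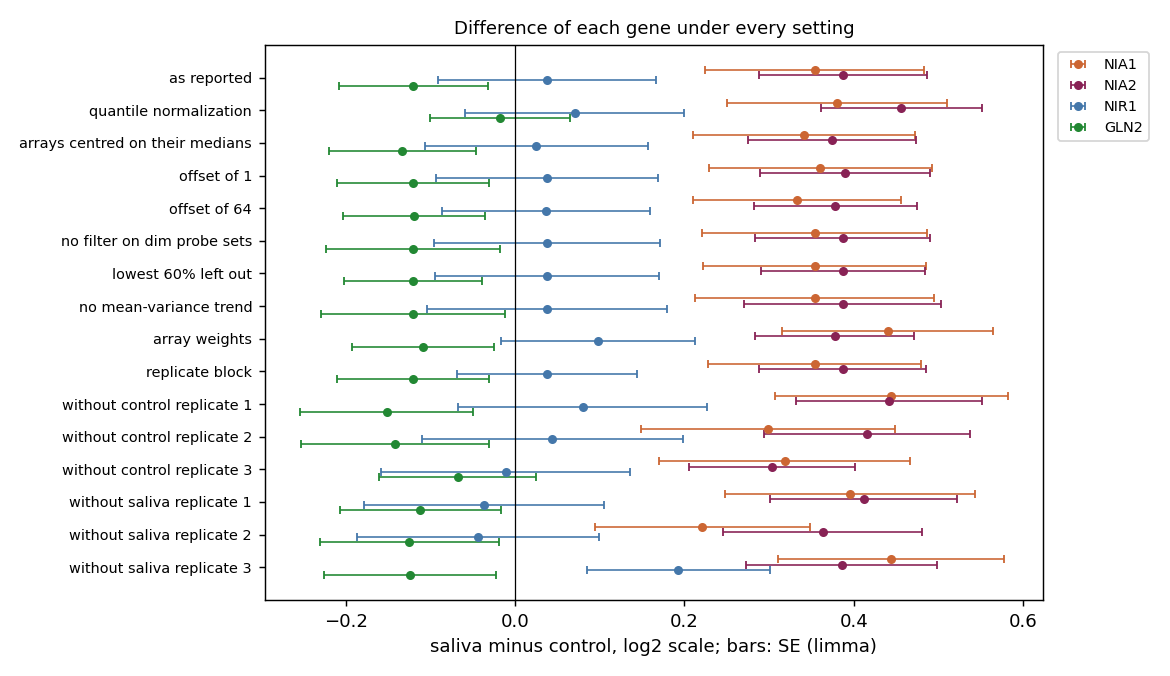
Difference between saliva and control on the log2 scale, with its SE from limma, for NIA1, NIA2, NIR1 and GLN2 as reported and under 15 alternative settings. NIA2 ranges from 0.30 to 0.46, NIA1 from 0.22 to 0.44, NIR1 from -0.044 to 0.19 on either side of 0, and GLN2 from -0.15 to -0.017.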

How the data were processed

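The deposited values are 1 signal per probe set and array, an intensity on a linear scale. Per the submitters' processing notes MAS5, GCOS and limma were used, with no role or version given in the sources used here. Columns of samples from other series numbered 0. From these values, 64 control probe sets were left out, 16 was added, log2 was taken, and the 40% of 22746 probe sets with the lowest mean over all 6 arrays were left out, which kept 13647 with a mean of at least 5.04. The groups were compared by limma 3.58.1 under R 4.3.3, using lmFit and a trended eBayes, two-sided, with Benjamini-Hochberg adjustment over all 13647. Values written ± are standard errors of this fit unless marked SD. The fit was also run on simulated data with independent normal noise. Its recovery of differences as small as those of the 4 genes is not reported here.

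Names came from the platform's annotation, updated through a RefSeq gene table of TAIR10.1, with 13513 probe sets of 1 gene, 503 of several and 8730 unnamed here. The 4 genes and all lists were chosen with earlier results of these data known, and the lists were written by locus from general knowledge. Named by rule are the 4 genes, up to 5 tested genes of each list by unadjusted p, and the 3 nearest probe sets of each gene. Also named are listed genes too dim to be tested, the marker genes and the NRT1/PTR genes found by annotation words. Of the 6 pairs of genes, 5 were chosen for comparison once values were known. No sequences are given.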

Additional observations from a re-analysis of the deposited data

How the results depend on the processing

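The alternatives were 2 normalizations, 2 offsets, 2 filters, no mean-variance trend, array weights, the replicate number as a block and each of the 6 arrays left out. Leaving out single arrays gave 0.22 to 0.44 for NIA1, 0.30 to 0.44 for NIA2, -0.15 to -0.068 for GLN2 and -0.044 to 0.19 for NIR1, which reversed without control replicate 3 (-0.011) and without saliva replicates 1 (-0.036) and 2 (-0.044). The change of NIA1 minus NIA2 ran from -0.14 to 0.058, and was above 0 without control replicate 1 (0.0023), control replicate 3 (0.015) and saliva replicate 3 (0.058). The other 5 pairs kept their direction under all 10 settings run for them. The median of the nitrogen lists ran from -0.044 to 0.0094 without single arrays and lay above 0 without control replicate 1 alone. The 8 probe sets past the threshold over the whole array became 1 with quantile normalization, no filter or no trend, 2 with an offset of 1, an offset of 64 or the lowest 60% left out, 53 with array weights, 29 with the replicate block, and 1 to 14 without single arrays. The cause was not tested. Same-numbered arrays correlated in their deviations from the group means at -0.059, 0.12 and 0.15, and differently numbered arrays at -0.17 to 0.089. Whether same-numbered arrays share more than a number cannot be told from so few values. With the replicate block the limma adjusted p was 0.304 for NIA1, 0.143 for NIA2, 0.942 for NIR1 and 0.681 for GLN2. With 3 arrays per group an exact permutation test cannot go below 0.1, and dim probe sets are limited by signal over background, for which no detection calls were used here.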

Other observations

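A further group, formed by words in the annotation after the values had been seen and so given without a test, were the NRT1/PTR transporters, a family that carries nitrate, peptides, hormones and glucosinolates. Of these 6 were named and tested, and 0 passed the threshold in limma, against 8 of all 13647 probe sets tested (0.0586%). The 6 include AT2G26690, already given above as the listed transporter NRT1.4, so they are not separate from the nitrogen lists. Means with saliva over the 6 were lower in 4 and higher in 2. Their median difference was -0.076, against 0.0057 over all probe sets tested, where the 10th percentile was -0.21. AT1G59740, annotated as NPF4.3, had signals of 32.8 to 50.8 in the controls and 23.1 to 36.4 with saliva, a difference of -0.37 ± 0.16 (SE; limma adjusted p = 0.455). GTR1 and GTR2, which carry glucosinolates, differed by -0.14 ± 0.15 and -0.039 ± 0.13. AT3G21670, annotated as NPF6.4, differed by 0.089 ± 0.14, with signals of 157 to 255 in the controls and 212 to 219 with saliva, and AT1G68570, annotated as NPF3.1, by 0.040 ± 0.14.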
